A study of Homo sapiens with 12 samples.

Results

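The total fitness of single gene knockdowns was measured in K562 cells from the day on which niraparib was added (T0) to the endpoint after the drug. K562 is a human chronic myelogenous leukemia line, here a line that carries the machinery of CRISPR interference (CRISPRi), in which an sgRNA represses transcription at its target promoter. The members were all 543 genes of a dual-sgRNA library, each read from the constructs that pair 1 of its 2 sgRNAs with a non-targeting sgRNA, so that 1 gene was repressed per cell. These were 119460 of the 1301881 constructs, with 220 constructs per gene, and 8 of the 12 libraries of the series entered the values. A further 3025 constructs that carry 2 non-targeting sgRNAs set the zero point.

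Each of 2 screens (2022 and 2023) had 2 biological replicate cultures, transduced with the library at 350 (2022) or 400 (2023) cells per construct and selected with puromycin. On day 9 after transduction a T0 sample was taken from each culture, and the rest was divided into an arm with niraparib and a reference arm with the vehicle DMSO. In 2022 the treated arm received 2 µM niraparib, was taken out of drug after 3 days and was harvested on day 18. In 2023 the dose went from 2 to 3 µM, the drug was removed after 4 days, and the harvest was on day 19. The knockdown of each target was not measured, and all groups carry the same library.

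Niraparib inhibits PARP1 and PARP2, enzymes that bind breaks in DNA and build chains of ADP-ribose from NAD, which recruit repair factors. The inhibited enzyme stays trapped on DNA, where it blocks replication forks, and cells need homologous recombination, with BRCA1, BARD1 and BRCA2 at its centre, to repair the resulting breaks. Cells with little PARP1 have less of it to trap. The change from T0 counts everything that happened to a knockdown over the assay: its growth without any drug effect and its response to the drug. The reference arm shows growth without the drug, but it does not fully separate these parts. The deposited scores were divided by constants of the size of cell doublings, which were smaller for the niraparib arms than for the reference arms. Unless stated, the arms are compared below without this division, so a gap between them need not be a response to the drug.

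In megareads, the T0 and niraparib libraries held between 324.8 and 334.6 in 2022 and between 182.6 and 221.9 in 2023. The median construct with 1 gene-targeting sgRNA had 163 to 297 reads in these libraries. The sum over a gene's constructs was never below 1036 reads in a niraparib library, and never below 757 in any of the 12 libraries. The reads come from PCR without named molecular identifiers, so counting error is only a part of the error. Below, abundance is the mean read count of a gene's constructs in a library as a percentage of that of the constructs with 2 non-targeting sgRNAs. A change is the log2 ratio of the niraparib endpoint over T0 in the same culture, on the scale where these controls stand at 0, given as the mean of both screens ± SD over the 4 cultures. A gene was called where the edgeR quasi-likelihood test gave an adjusted p under 0.05 over 598 features, which were the 543 genes and 55 non-targeting sgRNAs. That test takes its error from within the screens, so its p does not measure the SD, which holds the difference between the screens too.

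One library stood apart. Between the replicates of a group, the log2 abundance of genes differed with an SD of 0.016 to 0.039 in the 4 groups used for niraparib over T0 and of 0.030 in the 2023 reference group, but of 0.150 in the 2022 reference group. Replicate 1 of that group was lower than replicate 2 by up to 1.03 (log2), the value of BRCA2, and higher by up to 0.52, that of SHMT2. Niraparib over T0 does not use this library except for the spread of the fit: without it, 447 genes were lower and 35 higher, against 446 and 30 with it. Every value of the reference arm does rest on it. Values without it are given beside the genes and list medians whose reference level moves by over 0.05 (log2), which 34 of the 140 named genes did. Why it differs was not tested.

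Most knockdowns lost ground from T0 to the niraparib endpoint. Of 543 genes, 446 (82.1%) were lower than the controls, 30 (5.52%) were higher and 67 did not pass the test. The median gene stood at -0.58, with quartiles at -1.13 and -0.13. In the reference arm the median of all genes over T0 was already -0.46, or -0.42 without the library that stood apart. Under niraparib, 164 called genes were below -1, a halving against the controls. A further step down, 32 genes lay below -2, 4 below -3 and 1, BARD1, below -4. The 55 non-targeting sgRNAs, each treated as if it were a gene, spanned -0.04 to 0.05 with an SD of 0.016; 1 of them was called lower and 1 higher. Beyond that range lay 441 of the lower and 19 of the higher genes. The 4 cultures had one sign for 490 genes, and the SD over cultures had a median of 0.043. For how many genes the niraparib and T0 libraries do not overlap was not counted, so non-overlap is given below for single genes only.

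**Figure D1:**
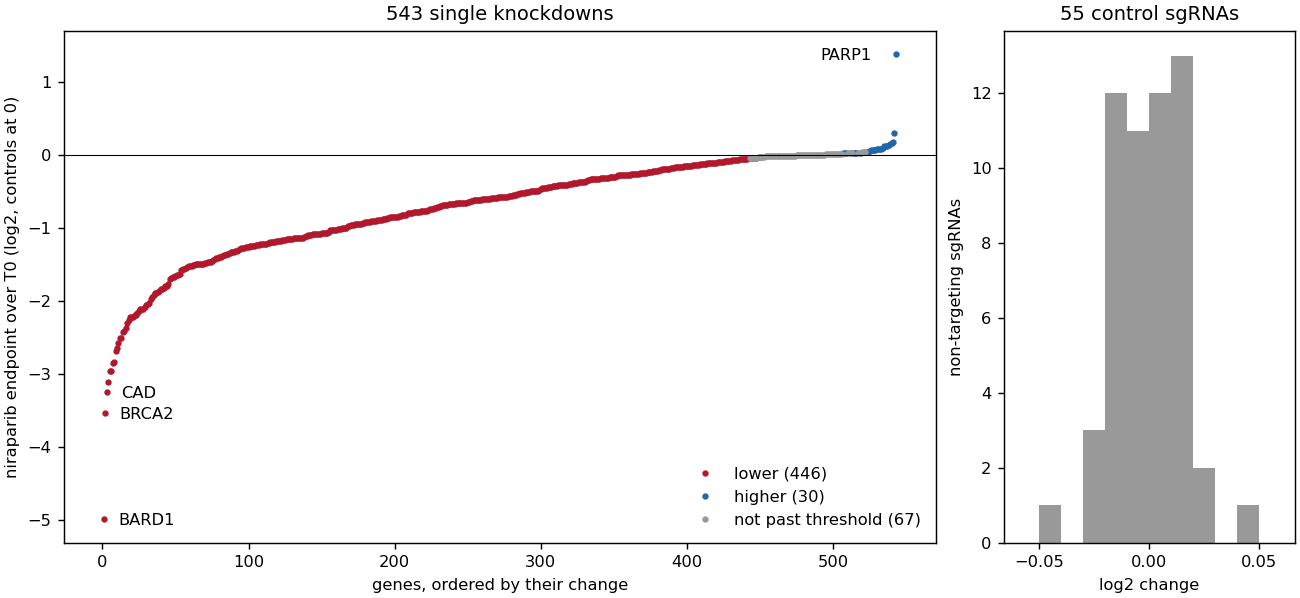
Left, the log2 change from T0 to the niraparib endpoint (y) of the 543 genes in order of their change (x), with 446 genes lower in red, 30 higher in blue and 67 not past the threshold in grey. Right, the number of non-targeting sgRNAs (y) by their change (x). The genes run from BARD1 at -5.00 to PARP1 at 1.38, and the 55 control sgRNAs lie between -0.04 and 0.05.

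The zero point decides how many genes count as higher. With TMM scaling over genes and controls, the median of all genes moved up by 0.44, and 294 genes were lower and 229 higher. With median-of-ratios scaling the shift was 0.43 and the split was 295 lower and 221 higher. The constructs without a gene-targeting sgRNA are the base throughout, by the definition of the measure. Under both scalings named genes with small falls lay above 0, among them all 4 BRCA1-A subunits, XRCC6, POLQ, EXO1, SFR1, CHD1L, MUS81, TOP3A, SMARCAL1, RNASEH2A, RNASEH2B, PPP2R2A and BMI1, and their direction below holds against the control constructs only.

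PARP1 stood alone on the higher side. Its constructs made up 113%, 113%, 116% and 114% of the control level in the 4 T0 libraries (2022 replicates 1 and 2, then 2023 replicates 1 and 2). At the niraparib endpoint they made up 272%, 265%, 326% and 330%. All 4 niraparib libraries lay above all 4 T0 libraries, and both 2023 cultures lay above both 2022 cultures. PARP1, the main target of the drug and the enzyme that makes most ADP-ribose chains, rose by 1.38 ± 0.16 (log2, SD, n = 4; adjusted p = 6.22e-05). Each of its sgRNAs gave 1.38, and with each of the 55 non-targeting partners the change lay between 1.29 and 1.46. The reference arm went the other way, at -0.75 over T0, or -0.56 without the library that stood apart. In a fit of the T0 and niraparib libraries alone the PARP1 value was the same and its adjusted p was 0.262, because edgeR took the expected spread from a trend on abundance at whose top end PARP1 lies; without that trend the same fit gave an adjusted p of 2.88e-05.

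CRISPRi acts at the promoter, so the 250 bases before the annotated start are shown for the gene that rose most, for the gene that fell most and for CAD, which fell most in the reference arm. They are RefSeq sequences of GRCh38.p14, printed 5′ to 3′ on the strand of the gene: chr1:226408094-226408343 (minus strand) for PARP1, chr2:214809684-214809933 (minus strand) for BARD1 and chr2:27217119-27217368 (plus strand) for CAD. Capitals mark matches, on either strand, to the GC box (GGGCGG) and the CCAAT box (CCAAT).
PARP1: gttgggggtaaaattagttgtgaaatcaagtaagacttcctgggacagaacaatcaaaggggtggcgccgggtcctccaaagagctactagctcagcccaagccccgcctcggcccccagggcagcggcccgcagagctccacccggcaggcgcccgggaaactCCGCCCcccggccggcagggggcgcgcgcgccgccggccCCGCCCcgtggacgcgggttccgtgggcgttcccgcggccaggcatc
BARD1: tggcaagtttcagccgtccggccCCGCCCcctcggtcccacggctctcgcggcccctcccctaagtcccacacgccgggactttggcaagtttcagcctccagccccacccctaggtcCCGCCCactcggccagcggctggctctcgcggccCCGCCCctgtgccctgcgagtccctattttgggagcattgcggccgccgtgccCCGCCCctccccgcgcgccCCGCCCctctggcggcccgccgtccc
CAD: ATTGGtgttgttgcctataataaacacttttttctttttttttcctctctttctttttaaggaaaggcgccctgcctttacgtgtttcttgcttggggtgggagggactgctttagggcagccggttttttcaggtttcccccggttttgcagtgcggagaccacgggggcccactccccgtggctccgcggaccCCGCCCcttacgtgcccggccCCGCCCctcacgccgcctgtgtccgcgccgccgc
The GC box occurs 2 times before PARP1, 5 times before BARD1 and 2 times before CAD, and 42.3% of 27305 RefSeq promoters of this length hold it. The CCAAT box occurs 1 time, before CAD, and in 33.0% of promoters. No match to the E-box CACGTG, the TATA box TATAAA or the ETS core CCGGAAG lies in these windows, against 6.49%, 11.1% and 8.82% of promoters. The G and C content is 70.4%, 75.2% and 58.8%. Where the sgRNAs bind in these windows is not known from the files used here.

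PARP2, the second target of the drug, barely moved. Its constructs stood at 141.6%, 141.3%, 139.5% and 141.9% of the controls at T0 and at 149.3%, 145.7%, 145.4% and 146.8% after niraparib. The groups did not overlap, and the rise was 0.06 ± 0.01 (adjusted p = 0.00178), close to the highest control sgRNA. PARG, which takes ADP-ribose chains apart, rose by 0.08 ± 0.01, but of its sgRNAs the second (0.12) passed and the first (0.02) did not. On the lower side of the same group, C4orf27, now HPF1, the factor that directs PARP1 and PARP2 to serine residues, fell to -1.50 ± 0.13. CHD1L, a chromatin remodeler that ADP-ribose activates, fell to -0.27 ± 0.02. The list of ADP-ribose turnover thus held 3 genes that rose and 2 that fell, with a median of 0.06 beside -0.58 for all genes.

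Of the supply of NAD, the substrate of PARP1, 2 of 6 listed genes were measured, and both fell. NAMPT makes the precursor of NAD in the salvage pathway. Its constructs stood at 107% of the controls in each T0 library and at 15.89%, 15.98%, 13.75% and 13.69% after niraparib. That is a change of -2.86 ± 0.12, with no overlap of the groups. NMNAT1, which completes NAD in the nucleus, stood at -2.36 ± 0.13. Over T0, the reference arm gave -0.88 for NAMPT and -1.39 for NMNAT1. ABCB1, the drug efflux pump for which niraparib is a substrate, stood at 0.01 ± 0.03 (adjusted p = 0.478): it had 73.9% to 75.4% of the control level at T0 and 74.4% to 76.3% after niraparib.

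In the lists that follow, a count of lower members reads against the 82.1% of all genes that were lower. A list with all or nearly all members lower is thus near that share. The medians, beside -0.58 for all genes, and the single values say how far. A reference median of a list reads against -0.46 for all genes, or -0.42 without the library that stood apart. Homologous recombination held the lowest 2 of all genes. BARD1, the partner of BRCA1 in its ubiquitin ligase, stood at 97.2%, 96.6%, 99.4% and 99.3% of the controls at T0 and at 2.99%, 3.22%, 3.11% and 3.02% after niraparib. This is a change of -5.00 ± 0.06 (adjusted p = 1.98e-07), to 3.14% of the starting level, and it was between -5.78 and -4.37 with each of the 55 partners. BRCA2, which loads the recombinase on single-stranded DNA, went from 109%, 108%, 109% and 111% to 10.1%, 10.4%, 8.52% and 8.83%, a change of -3.54 ± 0.15 (adjusted p = 1.95e-06). BRCA1 went from 110%, 110%, 112% and 113% to 19.8%, 21.8%, 21.3% and 20.1%, a change of -2.43 ± 0.08. In all 3 genes every niraparib library lay far below every T0 library, a trait that was not counted over all genes, of which 82.1% were lower. Over T0 the reference arm gave -1.33 for BARD1, -1.31 for BRCA2 and -0.49 for BRCA1, and without the library that stood apart -1.11, -1.07 and -0.41.

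Of the 12 measured genes of this recombination core, 11 fell and none rose, with a median of -1.42 (reference -0.47, and -0.39 without the library that stood apart). RAD51C, a part of the complexes that assist recombinase loading, stood at -2.30 ± 0.16. PALB2, the link between BRCA1 and BRCA2, stood at -1.47 ± 0.03. The helicase BRIP1 reached only -0.20 ± 0.02, and RAD52, at 0.01 ± 0.01, was the one member that did not pass. The 8 strand exchange cofactors, all lower, had a median of -0.63, near that of all genes, and spread widely: RAD54L, a motor protein of strand exchange, stood at -1.84 ± 0.06, PSMC3IP at -1.22 ± 0.04 and its partner MND1 at -0.85 ± 0.06. SWI5 (-0.84 ± 0.03) was lower than its partner SFR1 (-0.42 ± 0.02) in value, a difference that was not tested.

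End resection, the step that exposes single strands for recombination, had a median of -1.03 over 8 measured genes, all lower against the control constructs. The reference median of this list was -0.43, and -0.35 without the library that stood apart. RBBP8 (CtIP), which starts it, went from 66.8%, 66.6%, 67.9% and 67.0% of the controls to 12.4%, 12.5%, 11.1% and 11.1%, a change of -2.51 ± 0.10. The nuclease DNA2 stood at -1.26 ± 0.12, beside -1.19 in reference. AUNIP, which helps place CtIP, stood at -1.10 ± 0.04, and RAD50, MRE11A and NBN of one complex at -1.09 ± 0.08, -0.96 ± 0.08 and -0.71 ± 0.08. The other long-range nuclease, EXO1, stood at -0.23 ± 0.02 and the break kinase ATM at -0.16 ± 0.02, both smaller in size than the 0.44 by which TMM scaling shifts all genes.

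The Fanconi anemia pathway, which repairs crosslinks and protects forks, had a median of -1.15 over 16 measured genes, all lower against the control constructs. FANCB of the core ligase was lowest at -2.06 ± 0.05. C19orf40, now FAAP24, which anchors the ligase, stood at -1.97 ± 0.03, FANCA at -1.69 ± 0.03 and the nuclease scaffold SLX4 at -1.62 ± 0.01. FANCD2, the substrate of the ligase, stood at -1.46 ± 0.07 and its E2 enzyme UBE2T at -1.40 ± 0.04. C17orf70, another core subunit, stood at -0.05 ± 0.02 and is lower on that base only. The reference median of this list was -0.32, and -0.26 without the library that stood apart.

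The pathways that compete with recombination stood closer to the controls. In the 53BP1, RIF1 and shieldin axis, which limits resection, 4 of 10 genes fell and 6 did not pass, with a median of -0.02 beside -0.10 in reference. RIF1 stood at -1.24 ± 0.08 and DYNLL1 at -0.50 ± 0.04, whereas TP53BP1, at 83.3%, 83.3%, 82.2% and 82.1% of the controls at T0 and 86.9%, 84.2%, 82.1% and 83.4% after niraparib, gave 0.02 ± 0.03 (adjusted p = 0.753), with overlapping groups. The shieldin genes C20orf196 (-0.01 ± 0.04) and FAM35A (0.04 ± 0.05) did not pass either. In reference TP53BP1 stood at -0.20, and its niraparib over reference value was 0.22. Of the 10 genes of this axis, 4 were called above their reference level and 4 below it. Of 8 end joining genes, 4 fell and 4 did not pass, with a median of -0.06 beside -0.08 in reference. XRCC5, the larger Ku subunit, stood at -1.40 ± 0.18 and XRCC6, the smaller one, at -0.40 ± 0.07. Both were lower in reference, at -1.61 and -0.57. The 2 XRCC6 sgRNAs differed. The first went from a mean of 16.9% of the controls at T0 to 2.20% after niraparib, and the second from 80.2% to 71.3%. Reads are summed per gene, so the more abundant second sgRNA weighs more in the XRCC6 value. PRKDC, LIG4, XRCC4 and NHEJ1 lay between -0.02 and 0.02 under niraparib. POLQ stood at -0.11 ± 0.01 and KIAA1524, now CIP2A, at -0.43 ± 0.01. All 4 subunits of the BRCA1-A complex fell a little, from FAM175A at -0.15 ± 0.02 to BABAM1 at -0.08 ± 0.02, and all 4 turned above 0 under both other scalings.

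Of 21 listed genes of excision repair and the repair of nicks and single-strand breaks, lesions to which PARP1 binds, 6 were measured. All were lower, with a median of -1.57 beside a reference median of -0.21. XRCC1, the scaffold of this repair, stood at -2.10 ± 0.10. POLB, the gap-filling polymerase, went from 114%, 116%, 114% and 114% of the controls to 34.0%, 35.1%, 27.5% and 28.0%, a change of -1.89 ± 0.18, with both 2023 cultures lower than both 2022 cultures. DNPH1, which clears a modified nucleotide, went from 119%, 119%, 122% and 120% to 28.9%, 33.1%, 33.5% and 34.7%, also -1.89 ± 0.11. The ligases LIG1 and LIG3 stood at -1.26 ± 0.11 and -1.20 ± 0.06.

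Some genes were lower under niraparib while their reference arm did not pass the test. Reference over T0 passed for 463 genes (85.3%), and 23 genes were lower under niraparib without passing in reference, or 22 without the library that stood apart. The 8 lowest of these were POLB, DNPH1, RAD54L, C4orf27, AUNIP, SPIDR, LIN37 and EXO1, from -1.89 to -0.23. In the reference arm POLB stood at 0.02 (adjusted p = 0.128), DNPH1 at -0.03, C4orf27 at -0.06 and AUNIP at -0.002. SPIDR, a scaffold of recombination, and LIN37, a subunit of the DREAM repressor, stood at -0.26 ± 0.03 and -0.26 ± 0.04 under niraparib and at -0.03 and -0.04 in reference. RAD54L (-0.37) and EXO1 (-0.13) were at an adjusted p of 0.0591 in reference; without that library they were at -0.16 and -0.05 and passed (adjusted p = 0.00121 and 0.0416), so 6 of the 8 kept this pattern. EXO1 also lost its call under niraparib without replicate 1 (adjusted p = 0.0551) or replicate 2 (0.0629) of 2023. A p above the threshold does not show that a knockdown left growth unaltered.

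The 12 genes of the ATR checkpoint and the 9-1-1 clamp were all lower, with a median of -1.01 under niraparib and -0.85 in reference (-0.78 without the library that stood apart). ATR, the kinase that responds to stalled forks, went from 70.6%, 70.2%, 74.1% and 73.6% to 13.1%, 13.9%, 12.4% and 11.7%, a change of -2.50 ± 0.14, beside -1.63 in reference (-1.55 without that library). RAD9A of the clamp stood at -2.14 ± 0.03, HUS1 at -1.53 ± 0.08 and the third subunit RAD1 at -0.27 ± 0.02. ETAA1, the other activator of ATR, stood at -0.25 ± 0.04, and TOPBP1 at -1.41 ± 0.05. CHEK1, the kinase downstream of ATR, stood at -0.76 ± 0.01.

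The 7 genes of clamp loaders and PCNA, all lower, had a median of -1.50 beside -0.55 in reference, or -0.45 without the library that stood apart. RFC3 stood at -2.16 ± 0.25, RFC1, the large subunit of the main loader, at -1.54 ± 0.12, CHTF18 of the alternative loader at -0.97 ± 0.03 and PCNA at -0.09 ± 0.02. Of 23 genes of the replicative helicase and polymerases, 21 fell and 2, MCM7 and CDC45, did not pass. MCM2 was lowest at -3.11 ± 0.31, with -2.93 in reference. WDHD1, which couples the helicase to polymerase alpha, stood at -2.41 ± 0.19 with -0.999 in reference (-0.889 without that library), and went from 69.3%, 69.9%, 70.1% and 70.6% of the controls to 14.8%, 14.6%, 11.9% and 11.7%. MCM subunits act as one ring, yet MCM7 was at -0.01 ± 0.03; how well each sgRNA lowered its target was not measured.

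Other genome maintenance groups lay on both sides of the median gene. In the SMC5-SMC6 complex, NDNL2 (NSMCE3) stood at -2.84 ± 0.09 and SMC6 at -1.52 ± 0.08, with -2.66 and -1.32 in reference. All 3 topoisomerase genes fell, TOP2A to -1.31 ± 0.04, TOP1 to -1.06 ± 0.05 and TOP3A to -0.21 ± 0.03. In reference they stood at -1.75, -1.55 and -0.17. As log2 changes without division by the constants of the arms, TOP2A and TOP1 were thus lower there than under niraparib. The 9 genes of the BLM complex and structure-specific nucleases fell with a median of -0.41, beside -0.22 in reference. Among them were BLM at -1.03 ± 0.08, EME1 at -0.50 ± 0.02 and MUS81 at -0.41 ± 0.02, with -1.12, -0.22 and -0.03 in reference. In RNase H2, which removes ribonucleotides from DNA, RNASEH2C stood at -1.19 ± 0.03, RNASEH2B at -0.40 ± 0.02 and RNASEH2A at -0.24 ± 0.02. With 3 mismatch repair genes the list fell in all 6, with a median of -0.40, beside -0.39 in reference. Of 5 genes for fork reversal and damage tolerance, RAD18, the ligase that modifies PCNA, fell to -0.65 ± 0.03 and SMARCAL1 to -0.13 ± 0.02, while HLTF, ZRANB3 and CXorf57 lay between -0.003 and 0.03 and did not pass.

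Several of the lowest genes were lower still in the reference arm, as log2 changes without division by the constants of the arms. CAD, which carries the first enzymes of pyrimidine synthesis, went from 31.9%, 31.6%, 38.8% and 39.0% of the controls to 3.50%, 3.28%, 3.77% and 4.30%, a change of -3.25 ± 0.09, against -4.09 in reference. NOL6, a ribosomal RNA processing factor, stood at -2.96 ± 0.31 (reference -3.21), and HJURP, the chaperone of the centromeric histone, at -2.95 ± 0.20 (reference -3.15). GEMIN2 of the SMN complex stood at -2.69 ± 0.11 (reference -3.06), the methyltransferase DNMT1 at -2.64 ± 0.09 (reference -2.89) and DCTN3 of dynactin at -2.57 ± 0.27 (reference -3.01). The importin IPO13 and MINOS1 of the mitochondrial inner membrane, at -2.26 ± 0.17 and -2.22 ± 0.17, stood at -2.71 and -2.47 in reference. The origin subunit ORC5 stood at -2.22 ± 0.21, with -2.15 in reference. They complete the 20 lowest genes. UMPS, which ends the pyrimidine pathway that CAD begins, stood at -1.38 ± 0.12. All 8 genes of the COP9 signalosome and cullin ligases, which turn over proteins through ubiquitin, fell, with a median of -0.85 and a reference that was higher, at -0.64. COPS5 was lowest at -1.49 ± 0.09. All 6 ribosomal RNA genes, 5 mitochondrial translation genes, 3 centromere genes, 7 genes of mitosis and 6 genes of mitochondrial one-carbon metabolism were lower, as 82.1% of all genes were, with medians of -1.65, -1.25, -1.11, -1.08 and -0.78. Examples are DKC1 of the H/ACA complex (-2.19 ± 0.15), the tRNA synthetase PARS2 (-1.92 ± 0.17), the microtubule factor HAUS1 (-2.22 ± 0.27) and the folate enzyme MTHFD1 (-1.43 ± 0.10). Their reference medians were -2.14, -1.57, -1.61, -1.34 and -1.31, the last at -1.40 without the library that stood apart.

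The difference between the arms was tested directly. Niraparib over reference was lower for 194 genes (35.7%) and higher for 240 (44.2%), or 214 and 248 without the library that stood apart. Of the 20 lowest genes under niraparib, 12 were below their reference level, with the largest gap at BARD1 (-3.67, and -3.88 without that library), BRCA2 (-2.23, and -2.47), NAMPT (-1.97, and -2.02), BRCA1 (-1.94, and -2.02) and RBBP8 (-1.79, and -1.89). The other 8, CAD, NOL6, HJURP, GEMIN2, DNMT1, DCTN3, IPO13 and MINOS1, were above it by 0.20 to 0.84. None of these 20 calls changed without that library. The 20 genes were chosen for low niraparib values, which this difference also uses, so the 12 cannot be read against the 35.7% of all genes. The deposited growth scores were divided by constants of the size of cell doublings, 5.32, 5.36, 5.40 and 4.98 for the niraparib arms and 7.19, 7.73, 8.04 and 7.98 for the reference arms, which the sources read here do not define. Per such unit, CAD stood at -0.617 under niraparib and at -0.529 in reference, and all 8 genes were lower under niraparib. So were 162 of all 240 genes that were above their reference level. The niraparib constants are the smaller ones, so a fall shrinks less there by this division.

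**Figure D2:**
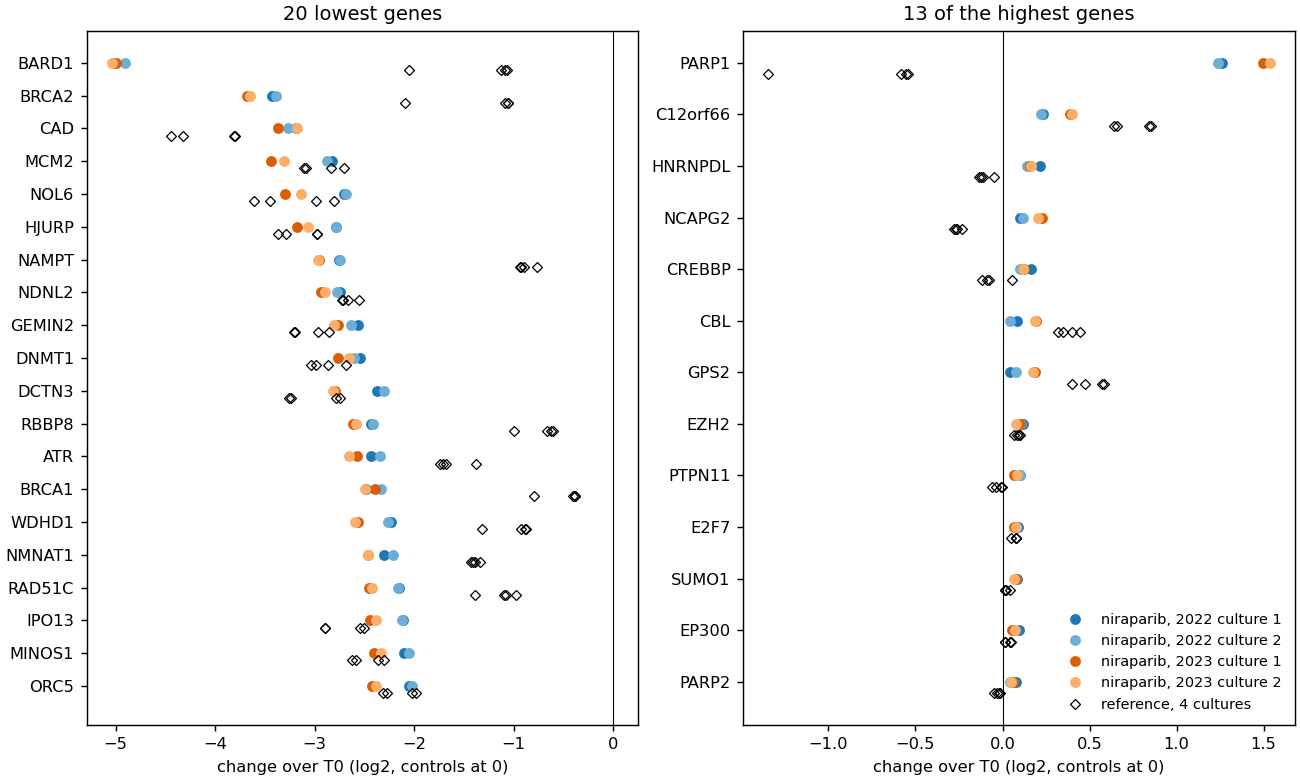
Log2 change over T0 (x) of the 20 lowest and 13 of the highest genes (y). Filled circles are the niraparib endpoints of the 4 cultures, blue for 2022 and orange for 2023, and open diamonds the reference endpoints of the same cultures. BARD1, BRCA2, NAMPT, RBBP8, ATR and BRCA1 lie well left of their reference points and CAD, GEMIN2 and DCTN3 right of most of theirs; PARP1 lies at 1.24 to 1.53, right of its reference points.

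After PARP1, the next of the 15 highest genes lay far below it, at 0.31 or less, with adjusted p from 1.73e-08 to 0.00178. C12orf66, now KICS2, a subunit of the KICSTOR complex that restrains mTORC1, went from 129%, 132%, 128% and 130% of the controls to 152%, 154%, 168% and 171%. The rise was 0.31 ± 0.10 (adjusted p = 1.73e-08), and the reference arm rose by 0.75. TSC1, another restraint of mTORC1, passed at 0.02 ± 0.02, but it lay inside the range of the control sgRNAs and lost its call whichever single culture was left out (adjusted p = 0.143 to 0.356). Among brakes of kinase and RAS signalling, CBL (0.13 ± 0.07) and GPS2 (0.12 ± 0.07) rose, with 0.38 and 0.51 in reference, whereas PTPN1 (-1.15 ± 0.13), NF1 (-0.58 ± 0.05) and LZTR1 (-0.46 ± 0.03) fell. Of 7 Polycomb genes, EZH2, the methyltransferase, rose by 0.10 ± 0.02, RBBP4 and BMI1 fell to -0.78 ± 0.06 and -0.05 ± 0.01 and 4 did not pass.

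In all, 10 genes were higher under niraparib and lower in reference over T0, and 9 without the library that stood apart. Those with the largest rise included PARP1, HNRNPDL, NCAPG2, CREBBP, C9orf41, PPP2CA and PTPN11. HNRNPDL, an RNA-binding protein, stood at 0.17 ± 0.03 and NCAPG2, a condensin subunit, at 0.16 ± 0.06, with -0.10 and -0.26 in reference. CREBBP, an acetyltransferase, stood at 0.13 ± 0.03, its paralog EP300 at 0.07 ± 0.02 and the phosphatase PTPN11 at 0.09 ± 0.02. PPP2CA, the catalytic subunit of PP2A, went from 60.2%, 62.5%, 58.7% and 58.5% to 65.2%, 64.2%, 61.8% and 64.0%, with overlapping groups, a value of 0.09 ± 0.04 at an adjusted p of 0.0456 that did not pass in either screen alone, nor without replicate 1 (0.143) or replicate 2 (0.257) of 2023. Its scaffold PPP2R1A and regulatory subunit PPP2R2A fell, to -0.49 ± 0.04 and -0.32 ± 0.03, with -1.37 and -1.001 in reference.

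**Figure D3:**
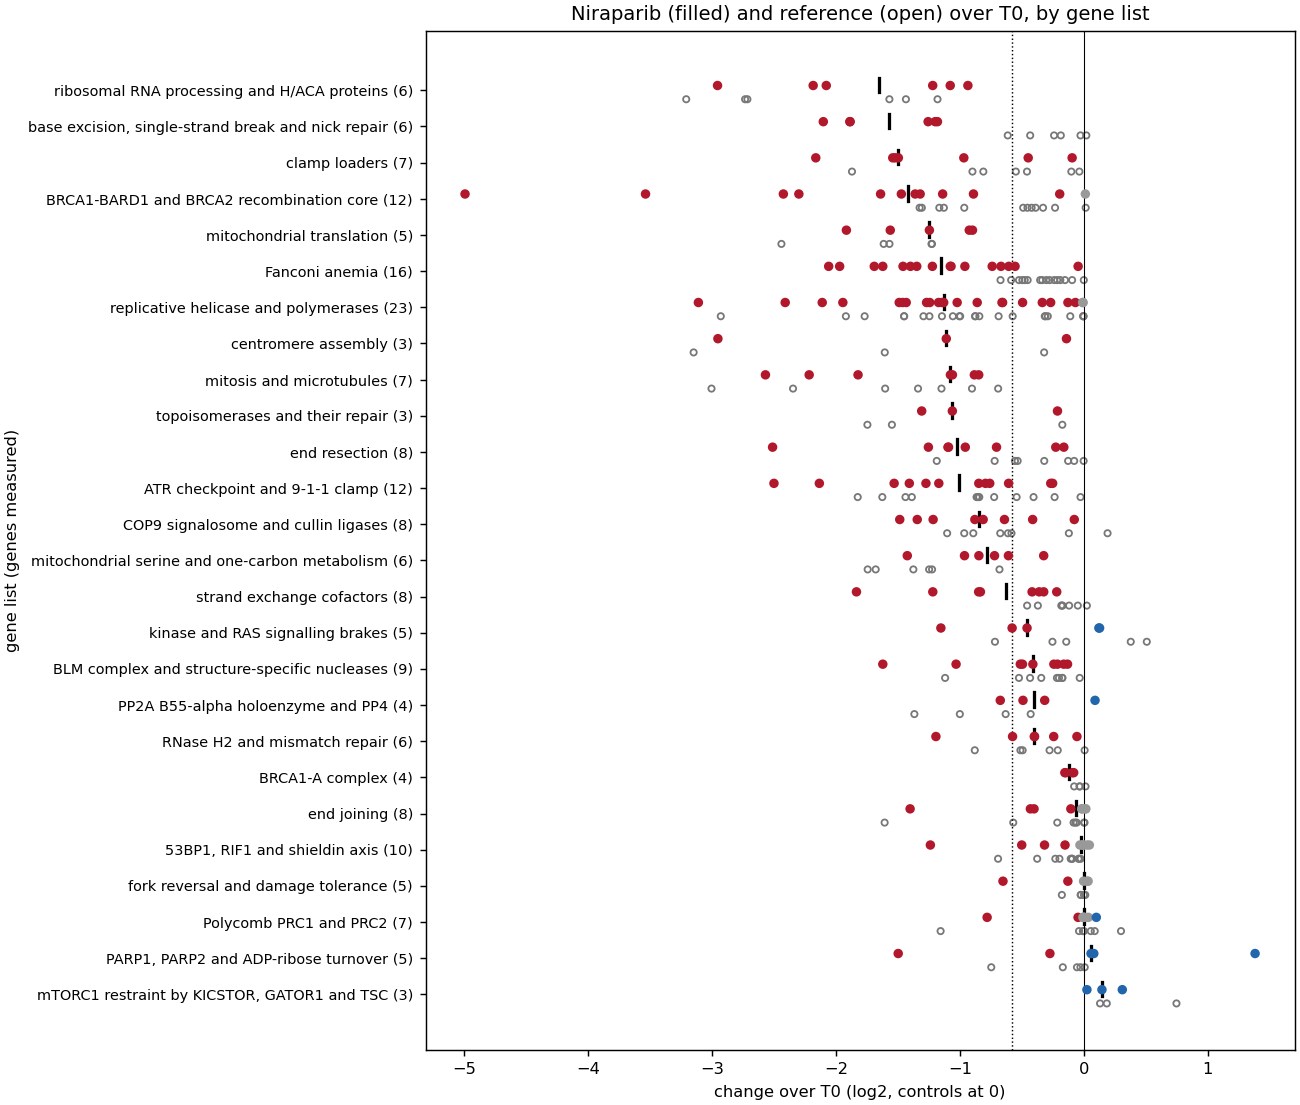
Log2 change over T0 (x) of the members of the 26 gene lists with at least 3 measured genes (y, with the number measured). Filled points are niraparib, red for lower, blue for higher and grey for not past the threshold, with a black bar at their median; open points below them are reference, and the dotted line is the median of all genes under niraparib, -0.58. In base excision, clamp loaders, the recombination core and the Fanconi list the filled points lie left of most open ones, while in ribosomal RNA processing and one-carbon metabolism most lie to the right.

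The screens gave nearly the same order of genes: the 2022 and 2023 values correlated with a Pearson r of 0.991 across 543 genes, and genes do not count as replicates. The 2023 screen, with the higher dose, the longer exposure and the later harvest among its differences, was lower for 414 genes, and the medians were -0.55 in 2022 and -0.61 in 2023. The difference passed for 156 genes (28.7%) lower in 2023 and 9 (1.66%) higher, and for 0 of the 55 non-targeting sgRNAs. The largest differences to the lower side were those of NOL6 (-0.52), MCM2 (-0.52), DCTN3 (-0.47), HAUS1 (-0.47), GAPDH (-0.46) and RFC3 (-0.44). MCM2 gave -2.82 and -2.88 in the 2022 cultures and -3.44 and -3.31 in the 2023 cultures, and GAPDH, the glycolytic enzyme, gave -0.89, -0.92, -1.38 and -1.35. SEPSECS, which makes selenocysteyl-tRNA, was the widest on the higher side, with -1.25 and -1.22 in 2022 and -0.66 and -0.50 in 2023 (difference 0.65, adjusted p = 0.0385). C12orf66 (0.17), POLE3 (0.15), FAM96B (0.14), CBL (0.13) and HNRNPK (0.13) followed.

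The number of screen differences depends on which libraries set the error of the test. With all cultures, DESeq2 called 222. In edgeR the number was 248 without the reference library that stood apart. It was 209 with T0 and niraparib libraries only, and 152 when the trend on abundance was left out too. All were lost without either replicate of 2023. Such a fit has 1 culture left in 2023. Its error comes from 2022 alone, with the reference library that stood apart in it. The loss cannot tell whether the differences rest on 1 culture of 2023. Dose, days of drug, harvest day, cells per construct, the RNase step of the extraction and the year differ between the screens together and cannot be told apart.

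**Figure D4:**
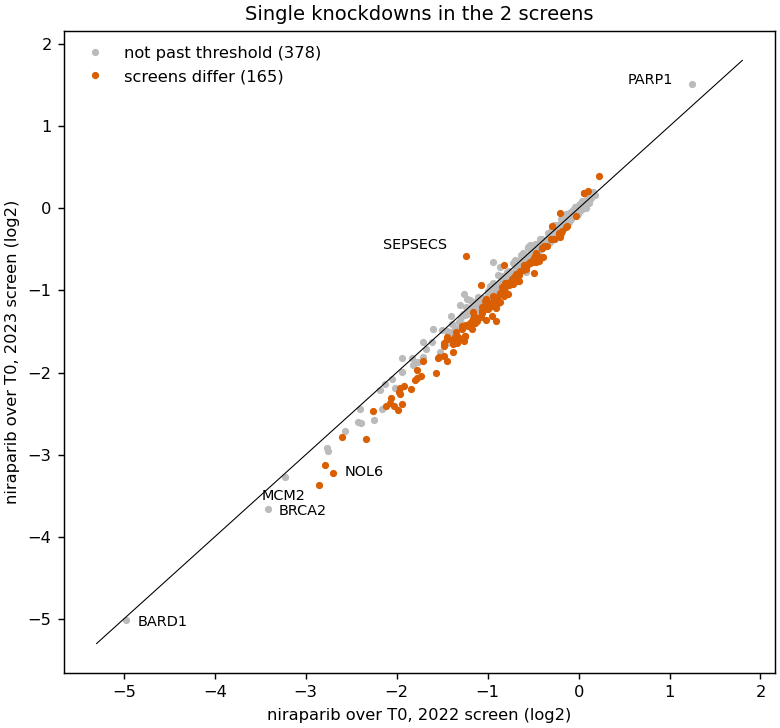
Log2 change from T0 to the niraparib endpoint in the 2022 screen (x) and the 2023 screen (y) of 543 genes, with the line of equal values. The 165 genes whose screens differ are orange; most lie below the line, SEPSECS lies above it, and BARD1, BRCA2 and PARP1 are grey because their difference did not pass.

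The 2 sgRNAs of a gene gave the same call in most genes. Both were lower for 397 genes (73.1%) and both higher for 16 (2.95%), and their values correlated with r of 0.736 over genes. The median gap was 0.20, and 45 genes had a gap over 1. In 49 genes 1 sgRNA was lower and the other did not pass, and in 9 the sgRNAs passed on opposite sides. The BRCA2 sgRNAs stood at -5.86 ± 0.14 and -2.66 ± 0.14 and those of XRCC1 at -1.32 ± 0.09 and -3.79 ± 0.14, so the gene value lies between 2 levels. For PSMD13, a proteasome subunit, the first sgRNA stood at -2.80 ± 0.16 and the second at 0.01 ± 0.02 (adjusted p = 0.534). For XRCC6 the values were -2.94 ± 0.33 and -0.17 ± 0.04, and for LRRC45, a centrosomal protein, 0.01 ± 0.02 (adjusted p = 0.418) and -2.71 ± 0.13. The first sgRNA of SARS, the cytosolic seryl-tRNA synthetase, had 76 to 120 reads at T0 and 6 to 14 after niraparib, so that its -4.08 ± 0.71 is the least certain of these.

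**Figure D5:**
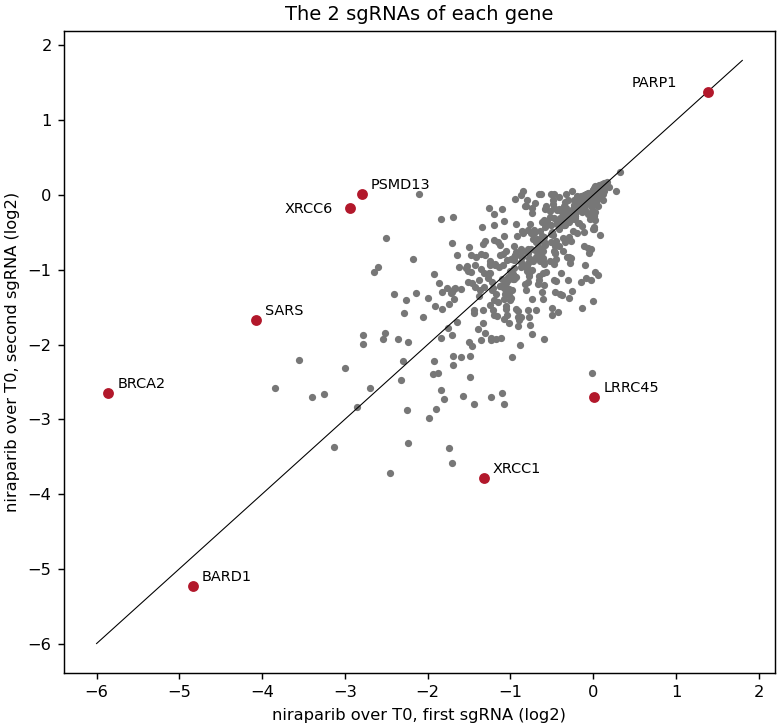
Log2 change from T0 to the niraparib endpoint of the first (x) and second (y) sgRNA of each of 543 genes, with the line of equal values and 8 genes in red. PARP1 (1.38 and 1.38) and BARD1 (-4.84 and -5.23) lie near the line, and BRCA2, XRCC1, XRCC6, PSMD13, LRRC45 and SARS lie far from it.

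Some of these genes share their promoter region with another gene, which CRISPRi can repress too. Of the 20 lowest and 15 highest genes, 31 had a RefSeq promoter entry, and 14 had another annotated start within 1000 bases. How many of all 456 genes with a promoter entry have such a neighbour was not counted. BRCA2 starts 145 bases from ZAR1L, BRCA1 82 bases from NBR1, BARD1 546 bases from the noncoding SNHG31, WDHD1 137 bases from SOCS4 and NMNAT1 84 bases from LZIC. LRRC45 starts 427 bases from CENPX, which the library holds as STRA13 of the Fanconi list (-0.74 ± 0.07), and DCTN5 of dynactin (-1.82 ± 0.07) starts 156 bases from PALB2 (-1.47 ± 0.03). In reference DCTN5 stood at -0.69 (-0.58 without the library that stood apart), whereas DCTN3 and DCTN1 stood at -3.01 and -1.60. PSMD13 starts 45 bases from SIRT3. Which gene of such a pair gives a value was not tested.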

How the data were processed

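The count tables that the authors deposited give each construct's number of reads in every library, not normalized; per the submitters' processing notes Bowtie2 2.3.4.1 was used, and how is not given in the sources used here. The deposited phenotype tables hold log2 values that the authors computed per replicate, which the counts return with 10 added to each count, divided by a constant per culture; their medians over constructs were an alternative. Counts were summed per gene over its 220 constructs, and library sizes were the sums over the 3025 control constructs. A quasi-likelihood model in edgeR 4.0.16 (R 4.3.3) was fitted over 12 libraries, with a replicate block (culture) and the arms nested in their screen (4 residual degrees of freedom, common biological coefficient of variation 3.06%), with the Benjamini-Hochberg adjustment of p-values taken over 598 features; the fit was tested on simulated data. DESeq2 1.42.0 was an alternative.

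Per the labels, T0 and both arms came from the same culture, so the replicate number pairs them and the fit holds a replicate block. The replicate difference correlated with r of -0.020 (2022) and 0.086 (2023) between T0 and niraparib over genes, so the pairing rests on the labels. Named genes were the 20 lowest and 15 highest called genes with one sign in 4 cultures and both sgRNAs; PARP1, PARP2 and ABCB1; up to 5 largest called members of each list with at least 3 genes; the 8 lowest with reference not past the threshold; 6 genes at each end of the screen difference; the 6 largest sgRNA gaps; and 8 genes higher with reference lower. Some genes that this rule takes are not reported here. Other list members are given for their place in a list. The members and lists were chosen with earlier results of these data known. Alternatives covered scaling, the T0 minimum of 50 reads, the block, libraries, positions, sgRNAs and screens.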

Additional observations from a re-analysis of the deposited data

Results flagged for a closer look

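The change from T0 to the niraparib endpoint differed between the 2 screens for 47 of the 140 named genes by the edgeR test of the difference itself (adjusted over 598 features). Of the named genes, 12 were taken because they passed this same test, and 165 of all 543 genes passed it. The count of 47 therefore does not set the named genes apart. The value is the log2 change in 2023 minus that in 2022. It was below 0 for these 39 genes, which lost more in the 2023 screen: NOL6 -0.52, MCM2 -0.52, DCTN3 -0.47, HAUS1 -0.47, GAPDH -0.46, RFC3 -0.44, IARS2 -0.37, ORC5 -0.37, HJURP -0.33, XRCC5 -0.30, POLB -0.30, MCM4 -0.30, IPO13 -0.29, PARS2 -0.29, MINOS1 -0.29, MCM6 -0.29, SARS -0.28, MCM10 -0.28, AURKA -0.27, DKC1 -0.25, LARS2 -0.25, NHP2 -0.23, CENPM -0.23, NOP10 -0.23, DCTN1 -0.22, NMNAT1 -0.21, DNA2 -0.21, C4orf27 -0.20, CLSPN -0.20, LIG1 -0.19, AARS2 -0.19, GEMIN2 -0.19, MTHFD1 -0.17, NOL10 -0.16, CARS2 -0.11, XRCC6 -0.11, COPS3 -0.10, PSMD13 -0.086, TOP1 -0.079. It was above 0 for these 8: NCAPG2 0.11, GPS2 0.12, HNRNPK 0.13, CBL 0.13, FAM96B 0.14, POLE3 0.15, C12orf66 0.17, SEPSECS 0.65. Among them NCAPG2, GPS2, CBL and C12orf66 were above the controls in both screens and more so in 2023, while SEPSECS, HNRNPK and FAM96B were below the controls in both and less so in 2023, and POLE3 stood at -0.20 in 2022 and at -0.06 in 2023, where it did not pass (adjusted p = 0.143). Over all genes, 414 of 543 were lower in 2023 and 156 of the 165 that differed were on that side, so the lower side is the usual one. The screens differ in dose, days of drug, harvest day, cells per construct and year, which cannot be told apart. Leaving out either 2023 replicate lost all of these calls in edgeR. Such a fit takes its error from 2022 alone, with the reference library that stood apart in it. DESeq2 with all cultures called 222 of all genes.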

How the results depend on the processing

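Of 140 named genes under 22 alternatives each, 2933 values counted as the same, 31 lost the call, 2 gained it, 52 changed sign and 58 moved by over 1 SD without a test. With a test, the same means direction and call. Without a test, it means within 1 SD for 113 medians of deposited scores and 106 means of both sgRNAs. The 140 values per doubling are the same changes divided by positive constants, and only their sign was compared. NOL6 had no value with the T0 minimum, and NOL6, HAUS1 and IARS2 none from the deposited scores. The zero point moved the counts of lower and higher genes most, and the cultures left out that of screen differences. TMM scaling gave 294 lower and 229 higher genes, 236 lower and 197 higher with both sgRNAs, and median-of-ratios scaling 295 and 221, and 234 and 198; the count of screen differences was 72 with the latter. Requiring values outside all control sgRNAs left 19 higher genes. The replicate block changed little: with no replicate block, 446 genes were lower, 34 higher and 162 differed between screens, and no named gene changed its call. Leaving out a culture gave 0 to 265 screen differences (248 without 2022 reference replicate 1), 436 to 452 genes lower and 20 to 42 higher. PARP1 kept 1.38 but not its call (adjusted p 0.262) with T0 and niraparib libraries only, and did keep it without the abundance trend. That last setting, the one without the reference library and the mean of both sgRNAs were chosen after seeing the data.

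Under TMM scaling these values turned above 0: CHD1L 0.17, SFR1 0.022, RNF8 0.12, PAXIP1 0.29, FAM175A 0.29, BRCC3 0.29, UIMC1 0.35, BABAM1 0.36, KIAA1524 0.00848, XRCC6 0.038, POLQ 0.34, SMARCAL1 0.31, TOP3A 0.23, MUS81 0.029, RNASEH2B 0.041, RNASEH2A 0.20, PPP2R2A 0.12, BMI1 0.39, CENPF 0.30, SPIDR 0.18, LIN37 0.18, EXO1 0.21, POLE3 0.31, PSMD13 0.019. Under median-of-ratios scaling they were CHD1L 0.16, SFR1 0.016, RNF8 0.12, PAXIP1 0.28, FAM175A 0.28, BRCC3 0.29, UIMC1 0.34, BABAM1 0.35, KIAA1524 0.00203, XRCC6 0.031, POLQ 0.33, SMARCAL1 0.30, TOP3A 0.22, MUS81 0.022, RNASEH2B 0.035, RNASEH2A 0.19, PPP2R2A 0.12, BMI1 0.39, CENPF 0.29, SPIDR 0.17, LIN37 0.18, EXO1 0.21, POLE3 0.31, PSMD13 0.013. With the first sgRNA alone LRRC45 was at 0.010, and with the second alone the values were PAXIP1 0.018, RMI1 0.00342, PSMD13 0.00902.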

Other observations

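The order of the 2 sgRNAs in a construct had a small effect. With the gene-targeting sgRNA in the first position the change was lower than in the second by a median of 0.043, r between positions was 0.981 over genes, and 6 genes differed by over 0.5, most of all DBR1 (first minus second -1.06), which was named after its value was seen. At T0, on day 9, genes already ranged from 9.72% to 175% of the control level with a median of 93.0%, and the control sgRNAs from 42.7% to 144%. Below every control sgRNA lay 29 genes and above every one 7. The share that comes from the cloning of the library and the share from growth before T0 cannot be told apart.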
